A study of Mus musculus with 6 samples.

Results

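The genes described are 6 receptors of the SLAM family (signalling lymphocytic activation molecule), namely Slamf1, Slamf6, Slamf7, Ly9, Cd48 and Cd84, together with Sh2d1a. The last is the gene of SAP, an adaptor of the family. They were taken by name from a table of 38924 mouse genes, and all 7 had a row and passed the filter on low counts that left 12502 genes. The treated cultures held primary CD4+ T cells treated with CX-4945 (silmitasertib, an ATP-competitive inhibitor of protein kinase CK2), at a dose that the labels give as 2 mM (whether that unit is right is not settled by the files). Control cultures received the solvent DMSO. Both groups held naive CD4+ T cells isolated from spleens of C57 BL/6 mice and grown for 72 h with antibodies to CD3 and CD28, IL-6, IL-23 and TGF-beta 1, a mixture that drives Th17 differentiation, and the series title frames the question as the choice between Th17 and regulatory T cell fates. There were 3 libraries per group, called biological replicates by the design text, which does not say whether each came from its own mouse. The p-values below therefore measure only the spread between these cultures. The 7 genes were chosen by their names with their fold changes in this same comparison known, so their levels and changes are given as a description without p-values, and "fell" marks only that a gene lay below the adjusted threshold of 0.05 in the test across all genes.

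SLAM family receptors belong to the immunoglobulin superfamily and mostly bind the same receptor on a neighbouring cell. Most, but not all, have a cytoplasmic tail with tyrosine motifs that, once phosphorylated, are bound by the SH2 domain of SAP. SAP brings in the kinase Fyn, and without SAP the same motifs can recruit phosphatases. In helper T cells SAP is known for sustaining contact with B cells and follicular help, and for the development of innate-like T cells, and loss of SH2D1A in people causes X-linked lymphoproliferative disease. Cd48 differs from the rest in having a lipid anchor in place of a tail, and serves as a ligand of CD244 and, in mice, of CD2.

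The libraries held 22178614 to 26148189 uniquely placed exon reads. Library numbers are those in the column names, which gave CX-4945 the numbers 2, 4 and 6 and DMSO the numbers 1, 3 and 5. Of the 12502 genes tested, 30.6% rose and 31.3% fell in CX-4945 at an edgeR adjusted p under 0.05 (61.9% in either direction). The 5 T cell markers examined summed to 1241 to 1260 CPM (read counts scaled for library size) in CX-4945 libraries and 2268 to 2416 CPM in DMSO libraries, and all 5 were lower in CX-4945. The abundant T cell genes Cd2 and Lck, described below, changed less than these markers. Cd2 fell 1.29-fold (edgeR adjusted p = 0.000353), and Lck did not pass the threshold (edgeR adjusted p = 0.137). In bulk RNA, fewer cells of a type and less RNA of a gene per cell cannot be told apart.

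Among the 7 genes 6 fell, 0 passed as higher and 1, Slamf6, did not pass; since these values guided the choice of the genes, nothing is read from that count. Slamf7 and Slamf1 fell by at least 2-fold, as did 8.79% of all genes tested. The median log2 fold change (CX-4945 over DMSO) of the 7 genes was −0.76, beside −0.0029 over all genes tested. The 2 groups of libraries did not overlap in any of the 7 genes, as was true of 69.7% of all genes tested. The changes spanned a wide range, with Slamf7 at one end and Slamf6 at the other.

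The sequences before the starts of Slamf7, Slamf1 and Slamf6 are shown because these genes mark the largest decrease, the next largest and the only increase in mean level. They are the 250 bases upstream of the RefSeq start in GRCm38.p6, the assembly behind mm10, on the strand of the gene. Capitals mark the motif matches described next, without the short NFAT motif.
Slamf7, chr1:171649000-171649249, minus strand: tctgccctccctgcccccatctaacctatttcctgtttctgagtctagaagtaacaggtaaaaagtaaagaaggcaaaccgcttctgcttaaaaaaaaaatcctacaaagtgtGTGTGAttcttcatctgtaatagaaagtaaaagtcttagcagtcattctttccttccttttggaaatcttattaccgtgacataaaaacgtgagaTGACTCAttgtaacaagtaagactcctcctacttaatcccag
Slamf1, chr1:171766882-171767131, plus strand: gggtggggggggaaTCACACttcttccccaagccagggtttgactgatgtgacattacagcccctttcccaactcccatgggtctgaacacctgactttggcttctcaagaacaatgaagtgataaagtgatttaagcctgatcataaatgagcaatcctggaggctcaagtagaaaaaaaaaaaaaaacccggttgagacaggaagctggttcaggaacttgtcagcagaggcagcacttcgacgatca
Slamf6, chr1:171917212-171917461, plus strand: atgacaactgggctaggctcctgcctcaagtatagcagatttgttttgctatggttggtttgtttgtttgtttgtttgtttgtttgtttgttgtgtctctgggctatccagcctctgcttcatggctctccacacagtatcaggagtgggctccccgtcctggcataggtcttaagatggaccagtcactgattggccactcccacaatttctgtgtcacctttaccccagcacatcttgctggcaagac
RefSeq windows of 300 bases, 250 before and 50 after the start, were at hand for 5 of the 7 genes (Cd48, Cd84, Slamf1, Slamf6 and Slamf7) and were searched on both strands for 8 short motifs. An AP-1 motif (TGANTCA), held by 7.81% of 32851 mouse windows of that length, occurred in Slamf7, 42 bases before the start, and in Cd84. A T-box motif (TCACAC, in 14.5% of windows) occurred in Slamf7, Slamf1 and Cd48, and a RUNX motif (TGTGGT, in 16.8%) in Cd48, where it overlaps the T-box match, and in Cd84. The ROR half-site (AGGTCA, in 16.3%) occurred in Cd84, and the NFAT core (GGAAA, in 61.3%) in Slamf7, Slamf1, Cd48 and Cd84. The STAT motif (TTCNNNGAA, in 8.30%), the IRF motif (GAAA, any 2 bases, then GAAA again, in 3.44%) and the TATA motif (TATAAA, in 13.6%) were in 0 of the 5 windows. The window of Slamf6 held 0 matches to the 8 motifs, which says only that these letters are not in this window.

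Slamf7, whose product (CRACC or CS1) is known on NK cells, activated lymphocytes and plasma cells, fell the most. It had 1.69, 1.55 and 3.41 CPM in CX-4945 libraries 2, 4 and 6, against 27.0, 18.2 and 38.3 CPM in DMSO libraries 1, 3 and 5. Every CX-4945 library lay far below every DMSO library, while the libraries of each group spread about 2-fold among themselves (2.20-fold in CX-4945 and 2.10-fold in DMSO from lowest to highest). The means were 2.22 ± 1.03 CPM in CX-4945 and 27.8 ± 10.1 CPM in DMSO (SD, n = 3 each), a 12.3-fold decrease with a log2 fold change of −3.63 ± 0.35 (SE of the edgeR fit). Of all genes tested, 0.184% had a lower log2 fold change. Behind these levels stood 42, 35 and 91 unique reads in CX-4945 libraries and 645, 436 and 902 in DMSO libraries.

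Slamf1, which encodes SLAM (CD150), a self-ligand receptor induced on activated T cells, had 27.7, 24.3 and 33.7 CPM in CX-4945 libraries, against 69.3, 61.4 and 74.0 CPM in DMSO libraries. It fell 2.39-fold to a mean of 28.5 ± 4.75 CPM in CX-4945, against 68.3 ± 6.36 CPM in DMSO (SD, n = 3 each; log2 fold change −1.26 ± 0.12 SE). The distance between the groups was several times the spread within either.

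Cd84, a self-ligand receptor of T, B and myeloid cells, had 23.6, 24.6 and 23.7 CPM in CX-4945 libraries, against 43.6, 43.9 and 37.4 CPM in DMSO libraries, and fell 1.74-fold (log2 fold change −0.80 ± 0.08 SE). Its CX-4945 libraries lay within 1.04-fold of one another. Ly9 (CD229), another self-ligand receptor of T and B cells, had 84.1, 80.6 and 90.9 CPM in CX-4945 libraries, against 143, 139 and 141 CPM in DMSO libraries. It fell 1.65-fold (log2 fold change −0.72 ± 0.06 SE) with the smallest spread of the 7 genes among DMSO libraries, a coefficient of variation of 1.54%.

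Cd48, the ligand without a signalling tail, changed least among the genes that fell. It had 37.0, 39.6 and 40.6 CPM in CX-4945 libraries, against 50.6, 53.8 and 45.6 CPM in DMSO libraries. The groups did not overlap, but CX-4945 library 6 and DMSO library 5 lay close together. The decrease was 1.28-fold (log2 fold change −0.36 ± 0.07 SE), to a mean of 39.1 ± 1.87 CPM in CX-4945, against 50.0 ± 4.12 CPM in DMSO (SD, n = 3 each).

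Slamf6 (Ly108), a self-ligand receptor that signals through SAP in T cells, was the one gene with a higher mean in CX-4945. It had 36.4, 35.0 and 37.0 CPM in CX-4945 libraries, against 27.9, 32.4 and 15.6 CPM in DMSO libraries. The CX-4945 libraries were nearly alike, whereas DMSO library 5 had less than the other two, so the size of the difference rests largely on that library. The means were 36.2 ± 1.00 CPM in CX-4945 and 25.3 ± 8.69 CPM in DMSO (SD, n = 3 each; log2 fold change 0.51 ± 0.22 SE), which did not pass the threshold. The log2 fold change was 0.26 without DMSO library 5 and 0.73 without DMSO library 3, and passed in both cases; it also passed with DESeq2, with limma-voom and without a filter on low counts.

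Sh2d1a, the gene of SAP, which lies on chromosome X (42502453 to 42523697, plus strand, mm10), had 17.9, 15.7 and 18.5 CPM in CX-4945 libraries, against 30.2, 27.6 and 30.7 CPM in DMSO libraries. It fell 1.69-fold to 17.4 ± 1.47 CPM in CX-4945, against 29.5 ± 1.66 CPM in DMSO (SD, n = 3 each; log2 fold change −0.76 ± 0.08 SE). The decrease of the adaptor was close in size to those of Cd84 and Ly9. Within a library, Sh2d1a had 0.213, 0.195 and 0.204 reads per read of Ly9 in CX-4945 and 0.211, 0.199 and 0.219 in DMSO, and these ratios, which need no scaling between libraries, overlapped.

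**Figure D1:**
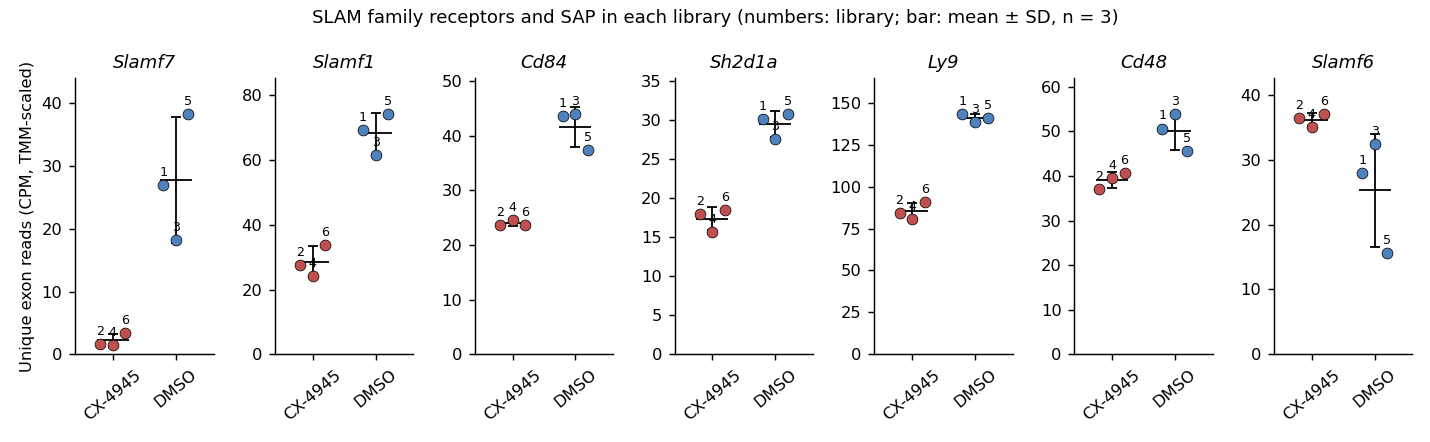
Unique exon reads in CPM after TMM scaling (vertical axis, linear from 0, each gene with its own scale) for the 7 genes in 3 CX-4945 libraries (red) and 3 DMSO libraries (blue). Points carry the library number, and the bars give the mean and SD. The CX-4945 libraries sit lower for 6 genes, by 12.3-fold for Slamf7 and 1.28-fold for Cd48, and higher for Slamf6, where DMSO library 5 stands lowest at 15.6 CPM.

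The libraries of a group differed among themselves, in orders that several of the genes shared. In DMSO, Slamf7, Slamf1 and Sh2d1a were highest in DMSO library 5 and lowest in DMSO library 3. Cd84, Cd48 and Slamf6 showed the opposite order, highest in DMSO library 3 and lowest in DMSO library 5. In CX-4945, Slamf7, Slamf1, Sh2d1a, Ly9 and also Slamf6 were highest in library 6 and lowest in library 4. Cd48 was highest in library 6 and lowest in library 2, and Cd84 was highest in library 4 and lowest in library 2. The macrophage gene Lyz2 also varied by library, with 14.7, 20.6 and 6.89 CPM in CX-4945 libraries 2, 4 and 6, against 7.86, 9.35 and 1.74 CPM in DMSO libraries 1, 3 and 5, and its part in the library differences was not tested. The ratio of Slamf6 reads to Slamf7 reads within a library joins both ends of the range. It was 21.5, 22.7 and 10.9 in CX-4945 libraries 2, 4 and 6, against 1.04, 1.78 and 0.408 in DMSO libraries 1, 3 and 5.

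Per kilobase of exon, Ly9 and Cd48 were the most abundant receptors in both groups, and the order of the others changed. In CX-4945 libraries the mean levels per length (CPM per kilobase) were 32.9 ± 1.57 for Cd48, 25.8 ± 1.59 for Ly9, 14.8 ± 0.41 for Slamf6, 8.39 ± 1.40 for Slamf1, 3.82 ± 0.086 for Cd84 and 2.05 ± 0.96 for Slamf7 (SD, n = 3). No neighbours in that order overlapped. In DMSO libraries they were 42.6 ± 0.65 for Ly9, 42.1 ± 3.47 for Cd48, 25.7 ± 9.29 for Slamf7, 20.1 ± 1.87 for Slamf1, 10.4 ± 3.56 for Slamf6 and 6.64 ± 0.58 for Cd84 (SD, n = 3). There Ly9 and Cd48, Slamf7 and Slamf1, and Slamf6 and Cd84 overlapped. SAP was at 6.37 ± 0.54 in CX-4945 and 10.8 ± 0.61 in DMSO (SD, n = 3 each).

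The 6 receptors together summed to 84.9, 84.5 and 93.6 CPM per kilobase in CX-4945 libraries, against 149.5, 142 and 150.4 in DMSO libraries. Slamf7 made up 1.84%, 1.69% and 3.36% of that sum in CX-4945 libraries, against 16.7%, 11.8% and 23.5% in DMSO libraries. Slamf6 made up 17.6%, 17.0% and 16.2% in CX-4945 libraries, against 7.64%, 9.32% and 4.25% in DMSO libraries. The share of Ly9 was 29.4 ± 0.55% in CX-4945 and 28.9 ± 0.59% in DMSO (SD, n = 3 each), a difference within the spread of the libraries. The exon lengths are those of the deposited table, whose models of Slamf7 (1082 bases), Slamf6 (2443), Slamf1 (3402) and Sh2d1a (2730) are shorter than the union of their GENCODE M21 exons (4577, 10832, 6156 and 5505 bases), so the place of these genes among the others depends on the model.

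**Figure D2:**
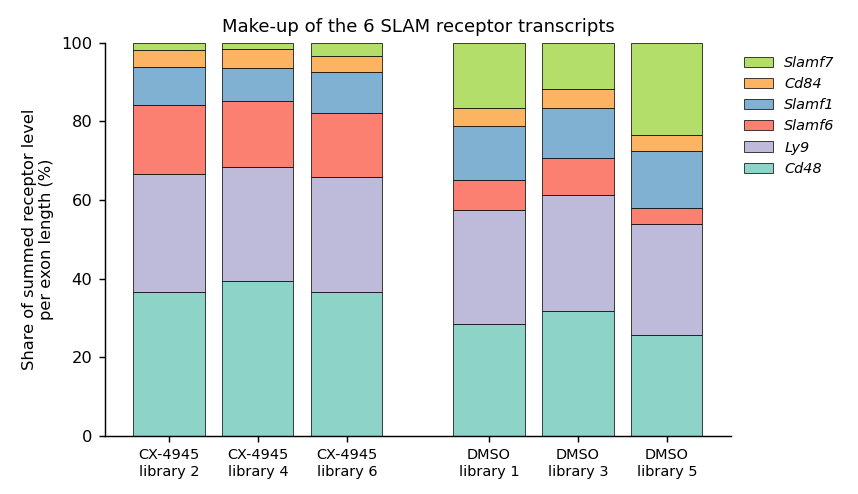
Share of each of 6 SLAM receptor genes in their summed level per exon length (vertical axis, percent), one stacked bar per library, CX-4945 libraries on the left and DMSO libraries on the right. Slamf7 takes 1.69% to 3.36% in CX-4945 libraries and 11.8% to 23.5% in DMSO libraries, while Slamf6 takes 16.2% to 17.6% in CX-4945 libraries and 4.25% to 9.32% in DMSO libraries.

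The 6 receptor genes share a position that the choice did not use. They lie within 355 kb of chromosome 1 (171588624 to 171943868, mm10), in the order Ly9 (171588624 to 171607410, minus strand), Slamf7 (171634925 to 171649007, minus strand), Cd48 (171682009 to 171705258), Slamf1 (171767127 to 171801184), Cd84 (171839697 to 171890718) and Slamf6 (171917537 to 171943868), the last 4 on the plus strand. The steepest decrease (Slamf7) and one of the mildest (Cd48) are next to each other, and Slamf6 lies 26.8 kb from the end of Cd84, which fell. The order along the chromosome was not the order of the changes.

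Genes around the cluster, taken by position, were tested in the same fit. Of 31 tested genes other than these receptors within 500 kb of the cluster on either side, 7 were higher and 7 lower in CX-4945 (22.6% each), where 30.6% of all genes tested were higher and 31.3% lower. Their median log2 fold change was −0.037. Cd244, which encodes the CD48 receptor 2B4 and ends 3.31 kb from Ly9, fell 1.84-fold with 0.847, 1.72 and 1.27 CPM in CX-4945 libraries, against 2.26, 2.30 and 2.50 CPM in DMSO libraries (log2 fold change −0.88 ± 0.25 SE, edgeR adjusted p = 0.0142). On the other side Vangl2, a planar cell polarity gene 57.1 kb beyond Slamf6, rose 1.34-fold with 11.5, 9.55 and 10.5 CPM in CX-4945 libraries, against 7.69, 7.68 and 8.14 CPM in DMSO libraries (edgeR adjusted p = 0.00802). Gm10521, the one tested gene between Cd84 and Slamf6, named after its values were seen, was lower in CX-4945 (log2 fold change −0.68 ± 0.21 SE, edgeR adjusted p = 0.0212). Leaving out CX-4945 library 2 or 4, or DMSO library 5, took that gene to an edgeR adjusted p of 0.0600 to 0.0753.

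Several of the larger changes in the flanks were in genes of low level. Apoa2, an apolipoprotein, fell 3.29-fold to 0.635 CPM in CX-4945, against 2.10 CPM in DMSO (edgeR adjusted p = 0.00019). Casq1, a calcium-binding muscle protein, had 14, 10 and 19 reads in CX-4945 libraries, against 6, 3 and 3 in DMSO libraries (3.37-fold higher), and Tstd1 had 15, 21 and 19 in CX-4945 libraries, against 6, 6 and 8 in DMSO libraries (2.63-fold higher). Klhdc9 had 13, 9 and 8 reads in CX-4945 libraries, against 15, 16 and 30 in DMSO libraries (2.09-fold lower). These 3 genes passed the filter on low counts, at 0.412 CPM, through the group where they are high, so their test in the filtered fit is not independent of the direction. With no such filter their edgeR adjusted p was 0.00674 for Casq1, 0.00705 for Tstd1 and 0.0422 for Klhdc9. The call of Klhdc9 was lost with DESeq2 (adjusted p = 0.0863). In the filtered fit it had an edgeR adjusted p of 0.0389, and of 0.0501 to 0.135 when any 1 of the 3 CX-4945 libraries or DMSO library 5 was omitted. Among the 26 flanking genes that reached this level in every library of both groups, 4 were higher and 6 lower. Over all genes tested 30.6% were higher and 31.3% lower, but those shares are not limited to genes at this level in both groups. Without CX-4945 library 2, 4 flanking genes were lower in place of 7.

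**Figure D3:**
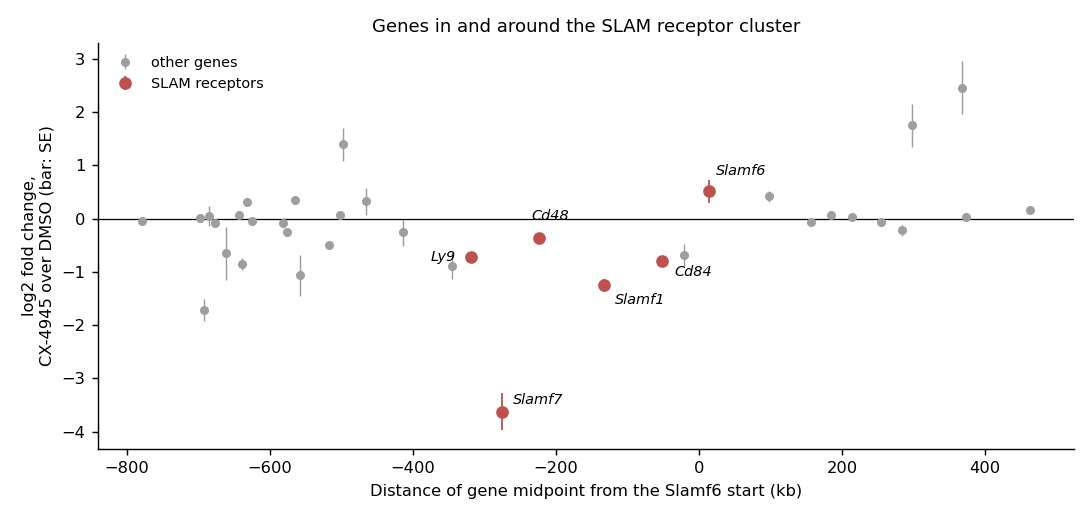
Log2 fold change of CX-4945 over DMSO (vertical axis, bars SE of the edgeR fit) of tested genes by the distance of their midpoint from the Slamf6 start (horizontal axis, kb). The SLAM receptors described are red and the 31 other genes, which include the related receptor gene Cd244, are grey. The receptors range from −3.63 (Slamf7) to 0.51 (Slamf6) within 355 kb.

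Of 6 relatives of the 7 genes with a row in the table, 2 passed the filter on low counts. Cd2, the abundant T cell adhesion receptor that binds CD48 in mice, fell 1.29-fold with 548, 545 and 565 CPM in CX-4945 libraries, against 731, 708 and 703 CPM in DMSO libraries (log2 fold change −0.37 ± 0.05 SE, edgeR adjusted p = 0.000353). With Cd244 above, which is also counted among the lower flanking genes, both related receptors that passed the filter were lower, beside 31.3% of all genes. Slamf8 and Slamf9, receptors of myeloid cells, were not tested: Slamf8 had 3 reads over the CX-4945 libraries and 2 over the DMSO libraries, and Slamf9 had 5 over the CX-4945 libraries and 15 over the DMSO libraries. The EAT-2 adaptor genes, which stand in for SAP in NK and myeloid cells, were at the limit of detection, with 1 read over the CX-4945 libraries and 2 over the DMSO libraries for Sh2d1b1, and 0 reads over the CX-4945 libraries and 1 over the DMSO libraries for Sh2d1b2. A count of 0 allows up to 3 reads in a library, or 0.112 to 0.133 CPM, and this limit reflects counting error alone.

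Of 19 genes that act downstream of SLAM receptors, 11 were lower and 5 higher in CX-4945 (57.9% lower and 26.3% higher, where 31.3% of all genes tested were lower and 30.6% higher), with a median log2 fold change of −0.16, beside −0.0029 over all genes tested. Fyn, the kinase that SAP recruits, had 175 ± 7.91 CPM in CX-4945 and 165 ± 1.66 CPM in DMSO (SD, n = 3 each; edgeR adjusted p = 0.165), and Lck, its relative, 668 ± 25.1 CPM in CX-4945 and 715 ± 17.7 CPM in DMSO (edgeR adjusted p = 0.137). Prkcq, the protein kinase C theta that follows SAP and Fyn, fell 1.34-fold with 198, 206 and 193 CPM in CX-4945 libraries, against 279, 282 and 240 CPM in DMSO libraries (edgeR adjusted p = 0.00111). Of genes on the way to NF-kB, Malt1 fell 1.28-fold (edgeR adjusted p = 0.000987), while Bcl10 had 62.1 ± 2.62 CPM in CX-4945 and 59.5 ± 2.85 CPM in DMSO (SD, n = 3 each; edgeR adjusted p = 0.395). Nfkb1 rose 1.31-fold (edgeR adjusted p = 0.00197).

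The phosphatases that can bind the same tyrosine motifs moved apart. Ptpn6 (SHP-1) fell 1.23-fold (edgeR adjusted p = 0.00156) and Inpp5d (SHIP-1) 1.14-fold (edgeR adjusted p = 0.00675), whereas Ptpn11 (SHP-2) rose 1.27-fold with 210.1, 214 and 206 CPM in CX-4945 libraries, against 165, 174 and 158 CPM in DMSO libraries (edgeR adjusted p = 0.000761). Among adaptors and Ras regulators, Dok2 fell 1.46-fold (edgeR adjusted p = 0.000187), Arhgef7 1.29-fold (edgeR adjusted p = 0.000429) and Rasa1 rose 1.53-fold (edgeR adjusted p = 0.00576). Of the autophagy genes whose products bind Slamf1 in phagocytes, Uvrag fell 1.58-fold (edgeR adjusted p = 0.00023) and Becn1 rose 1.23-fold (edgeR adjusted p = 0.00328). The changes of Vav1, Dok1, Nck1 and Pik3c3 were 1.14-fold or smaller and each lost its call when single libraries were left out, Vav1 in 5, Dok1 in 5, Nck1 in 4 and Pik3c3 in 6 of 6 cases (edgeR adjusted p 0.0531 to 0.157).

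A list of 11 helper T cell genes tied to SAP or SLAM signals was read without regard to the kind or direction of each link. Of these, 7 were lower and 0 higher (63.6% lower, beside 31.3% of all genes tested), with a median log2 fold change of −0.43. Cd40lg, the CD40 ligand that conveys help to B cells, fell 2.31-fold with 8.10, 7.03 and 6.96 CPM in CX-4945 libraries, against 16.9, 21.7 and 12.3 CPM in DMSO libraries (edgeR adjusted p = 0.000937). Cxcr5, the follicle-homing chemokine receptor, fell 1.96-fold (edgeR adjusted p = 0.00955), Bcl6, the follicular helper regulator, 1.41-fold (edgeR adjusted p = 0.00713), Il21 1.35-fold (edgeR adjusted p = 0.00301) and Icos 1.29-fold (edgeR adjusted p = 0.00219). Gata3 fell 1.64-fold (edgeR adjusted p = 0.0193), and omitting CX-4945 library 2, CX-4945 library 4 or DMSO library 1 moved it to an edgeR adjusted p of 0.0671 to 0.0757. Il13 had 8, 7 and 11 reads in CX-4945 libraries, against 12, 15 and 16 in DMSO libraries, and passed the filter on low counts only through DMSO, where it is high. It is in the count of 7, but its call (edgeR adjusted p = 0.0482) was lost with no such filter (edgeR adjusted p = 0.0915), with DESeq2 (adjusted p = 0.233) and when any 1 of the 6 libraries was omitted (edgeR adjusted p 0.0592 to 0.138). Of the 9 listed genes that reached the filter in every library of both groups, 6 were lower. The share of 31.3% over all genes is not limited in that way. Il4 had 0.737 ± 0.081 CPM in CX-4945 and 0.658 ± 0.152 CPM in DMSO (SD, n = 3 each; edgeR adjusted p = 0.603). Zbtb16, the regulator of innate-like T cells, averaged 0.611 CPM in CX-4945 and 0.602 CPM in DMSO (edgeR adjusted p = 0.932). Ifng averaged 1.86 CPM in CX-4945 and 1.80 CPM in DMSO (edgeR adjusted p = 0.912), and Nfatc1 145 CPM in CX-4945 and 159 CPM in DMSO (edgeR adjusted p = 0.226).

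**Figure D4:**
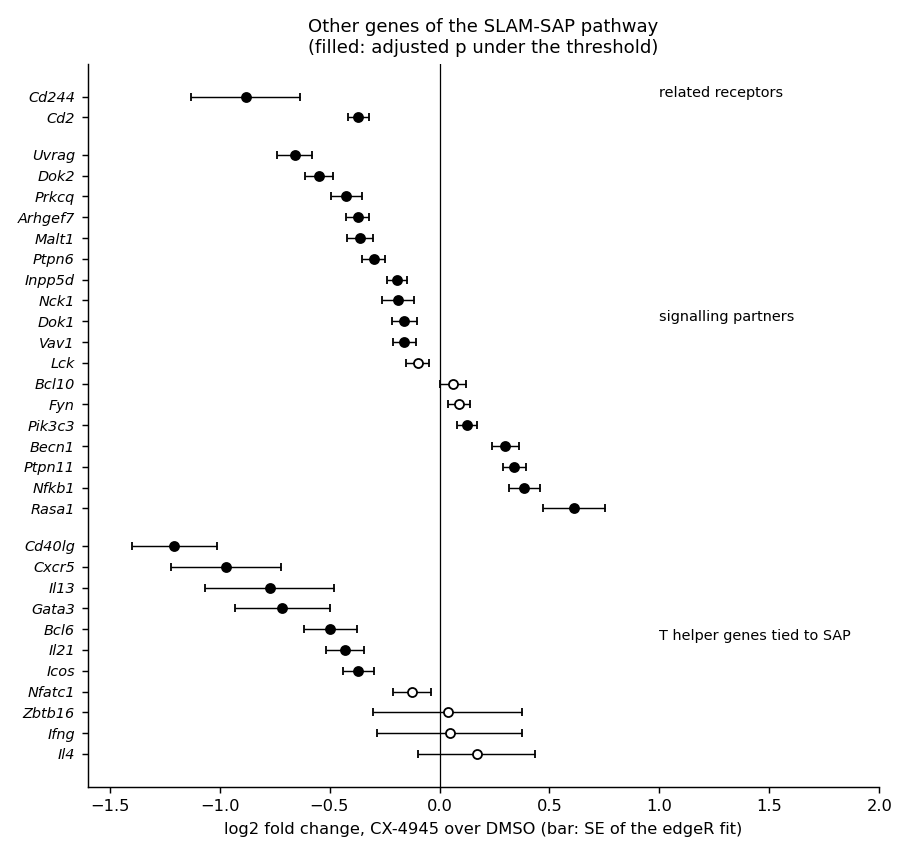
Log2 fold change of CX-4945 over DMSO (horizontal axis, bars SE of the edgeR fit) of tested genes of the SLAM-SAP pathway other than the 7 described, in 3 lists. Filled points passed an adjusted p of 0.05. Of the 19 signalling genes 18 are drawn, of which 10 passed as lower and 5 as higher, and of 11 helper T cell genes 7 passed as lower.

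The genes closest to each of the 7 in pattern were found from the root mean square distance of their centred log2 CPM over the 6 libraries (with a prior count of 2), a description of 6 points that share libraries and group. Slamf7 was nearest to Col16a1, a collagen (distance 0.17), Abcb9, a lysosomal peptide transporter (0.20), Micall2 (0.21), Ltbp3, a binding protein of latent TGF-beta (0.23), and Adm, adrenomedullin (0.23), all higher in DMSO library 5 than in DMSO library 3. Col16a1 had 0, 0 and 0.112 CPM in CX-4945 libraries, at or under the detection limit of 3 reads, so its distance and rank depend on the prior count. Abcb9 had 10.0, 9.81 and 16.5 CPM in CX-4945 libraries, against 146, 107 and 157 CPM in DMSO libraries. Slamf1 was nearest to Tgm2 (0.048), Ecm1 (0.048) and Bhlhe40 (0.052), a transcription factor of helper T cells that had 313, 292 and 364 CPM in CX-4945 libraries, against 761, 675 and 854 CPM in DMSO libraries. Ly9 was nearest to Fam107b (0.016), Ivd (0.032) and Pja1 (0.034), and Cd48 to Icos (0.027), Gab3 (0.029) and Abcd3 (0.031). Cd84 was nearest to Cyp4v3 (0.043), Syne1_1 (0.062) and Tnfrsf23 (0.064), and Sh2d1a to Rnf43 (0.028), Ncf4 (0.036) and Atxn1 (0.039). The nearest genes to Slamf6 were more distant than those of any of the 7 but Slamf7, 1110008P14Rik at 0.096, Gm4890 at 0.098 and Slfn2, a Schlafen gene of T cell quiescence, at 0.10. No member of the group was among the nearest genes of another.

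SLAM receptors are also carried by B, NK, myeloid and dendritic cells and platelets, so markers of these cells were read beside them. The 5 B cell markers summed to 9.13 to 9.96 CPM in CX-4945 libraries and 9.73 to 14.2 CPM in DMSO libraries, with 0 of 4 tested past the threshold. The 4 macrophage and monocyte markers with a row summed to 17.3 to 31.6 CPM in CX-4945 libraries and 11.2 to 17.6 CPM in DMSO libraries, of which 1 was higher. NK cell markers summed to 5.83 to 7.30 CPM in CX-4945 libraries and 4.71 to 4.97 CPM in DMSO libraries. Both tested genes, Klre1 and Eomes, were higher, where 30.6% of all genes tested were higher. Eomes had 21, 14 and 32 reads in CX-4945 libraries, against 3, 5 and 9 in DMSO libraries. It passed the filter on low counts only through CX-4945, where it is high, so its test is not independent of the direction. Ncr1, which defines NK cells, had 1 read over the CX-4945 libraries and 6 over the DMSO libraries. Dendritic cell markers summed to 4.34 to 7.47 CPM in CX-4945 libraries and 7.76 to 8.77 CPM in DMSO libraries, with 1 of 4 tested lower and Siglech at 0 reads in all 6. Platelet markers summed to 3.43 to 4.29 CPM in CX-4945 libraries and 4.05 to 7.85 CPM in DMSO libraries, with 1 of 2 lower. The CD8 T cell markers Cd8a and Cd8b1 summed to 14.2 to 23.1 CPM in CX-4945 libraries and 19.9 to 28.0 CPM in DMSO libraries, with 1 of 2 lower. The part of these cells in the SLAM receptor values was not tested. All 5 T cell markers fell, from 1.32-fold for Cd3e to 2.19-fold for Cd3g, while Cd2 fell 1.29-fold and Lck did not pass the threshold. The fall of the markers stands beside the 1.28-fold to 2.39-fold decreases of Cd48, Ly9, Sh2d1a, Cd84 and Slamf1. Its part in them was not tested either.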

How the data were processed

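RNA-seq libraries of 3 CX-4945 and 3 DMSO cultures were read from the authors' table of 38924 genes. The deposited counts used are uniquely placed exon reads per gene, whole and not normalized, per the file headers. Coordinates are in mm10, the build named in the submitters' processing notes. For the aligner, annotation release and strand setting the sources used here give nothing, so overlapping genes on opposite strands cannot be told apart. Of the genes listed, only mmu-mir-7683 overlaps any of the 7: it lies in Slamf7, on the same strand, with 0 reads. Column names show a group but not which sample of it. Only 1 kind of read was used per library, and 101 other per-library columns were not used. The 7 genes, the lists and the tests were chosen with earlier results of these data known.

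Low counts were removed with the filterByExpr function (edgeR 4.0.16) at a minimum count of 10 and a minimum total of 15. Libraries were scaled by TMM (factors 0.971 to 1.02) and tested by the edgeR quasi-likelihood F test in R 4.3.3, two-sided, with Benjamini-Hochberg adjustment over all tested genes. SE is the size of the log2 fold change over the square root of F. The test was tried on simulated data first. Alternatives used DESeq2 1.42.0 and limma 3.58.1, other scalings and filters, a narrower flank, and each library left out. Libraries of a group were not duplicates: the chi-square of their counts was 3.92 to 27.7 times its degrees of freedom. Named were the 7 genes, the listed relatives, listed genes past the threshold, the flanking genes with the largest changes and next to the cluster, and the nearest profiles; 2 genes that this rule would name are not reported here.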

Additional observations from a re-analysis of the deposited data

How the results depend on the processing

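Slamf7, Slamf1, Cd84, Ly9, Sh2d1a and Cd48 kept their direction and stayed past the threshold in all 12 alternatives. Without single libraries their log2 fold changes were −4.09 to −3.33, −1.39 to −1.15, −0.87 to −0.76, −0.77 to −0.68, −0.81 to −0.69 and −0.42 to −0.30. Slamf6 passed with DESeq2 (0.52), limma-voom (0.58) and no filter on low counts (0.51), and its log2 fold change was 0.26 to 0.73 without single libraries. The count of the 7 genes that were higher was thus 1 in place of 0 with DESeq2, limma-voom and no filter, and 0 to 1 without single libraries. A filter of at least 5 CPM in 3 libraries tested fewer genes, and left 1 related receptor lower in place of 2, and 4 flanking genes higher and 3 lower in place of 7 each. Within 250 kb, 16 flanking genes were tested, of which 3 were higher (18.75%) and 5 lower (31.25%). Over all genes tested these shares were 30.6% and 31.3%. Without single libraries 4 to 7 flanking genes were lower. Of the signalling genes 8 to 10 were then lower and 4 higher, in place of 11 and 5. Of the helper T cell genes 5 to 6 were lower in place of 7. Among all genes tested, 3212 to 4039 were lower in place of 3910. Ifng ranged from −0.28 to 0.36 and Zbtb16 from −0.20 to 0.29 without single libraries, and Zbtb16 was −0.029 with limma-voom, so neither has a direction. Of 456 other values of pathway and flanking genes, 403 kept direction and call, 47 lost the call and 6 turned. Apart from the filter and the narrower window, the cause was not tested. Counts with multiply placed reads were planned but not run. Their columns, like those used, show a group but not which sample of it. No paired analysis was possible because the columns of the deposited table carry no replicate number of the labels. The Slamf7 level in CX-4945 rests on 35 to 91 reads a library, and the few reads of Slamf8, Slamf9, Sh2d1b1 and Sh2d1b2 allow no comparison.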
